A study of Bos taurus with 8 samples.

Results

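The proteins of this group bring newly made proteins into the endoplasmic reticulum (ER), fold them, send them on and watch over the load. The genes were taken by name from the array annotation, with signal recognition particle (SRP), SEC61, SEC62 and SEC63, SSR, signal peptidase, protein disulfide isomerase, prolyl 4-hydroxylase and COPII coat genes, and 13 single genes of folding, stress and degradation, of which each was found. This gave 56 of the 18087 genes with a symbol of their own on the array, each read from 1 transcript cluster (for SPCS3, which had several, the cluster of highest mean). The rule goes by gene names, not by measured values, though it and the lists below were chosen with earlier results of these data known.

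Large luteal cells (LLC, n = 4) were compared with small luteal cells (SLC, n = 4). Both came from mature mid-cycle corpora lutea of lactating Holstein cows whose cycles had been synchronized with cloprostenol, a prostaglandin analog. After collagenase and a Percoll gradient the cells were stained with a Hoechst dye and sorted by FACS, and each sample's RNA was measured on an Affymetrix Bovine Gene 1.0 ST array of its own. The labels name biological replicates 1 to 4 of each type but do not say which cows they came from, so p-values measure the spread between these samples.

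A protein with a signal sequence is caught by SRP as it leaves the ribosome, docks at the SRP receptor and enters the ER through the SEC61 channel, where signal peptidase removes the signal. Inside, lectin chaperones and disulfide isomerases help it fold, and COPII vesicles carry it to the Golgi, while proteins that fail to fold are sent back for degradation. When unfolded proteins build up, the sensors encoded by ERN1, EIF2AK3 and ATF6 start the unfolded protein response. In the corpus luteum the large cells are known for peptide hormone secretion, and smooth ER carries part of steroid synthesis in both cell types.

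The labels were checked on markers. All 6 markers of large luteal cells (OXT, PTGFR, NR5A2, CYP19A1, FST and PRLR) were higher in LLC, and 2 of 4 markers of small luteal cells (INSL3 and NR2F2) were lower in LLC. On the log2 scale the mean of the large cell markers exceeded that of SLC by 3.44 in LLC replicate 4, and by 3.94 to 4.37 in LLC replicates 1 to 3. The other small cell markers, LHCGR (adjusted p = 0.0593) and CYP17A1 (adjusted p = 0.965), were not called. The mean of the small cell markers stood at -1.87, -1.71, -0.74 and -0.53 in LLC replicates 1 to 4 against SLC. On this list replicate 3 thus lay near replicate 4. LLC replicate 4, the nearest to SLC on both lists, is given apart wherever a result rests on it.

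LLC and SLC differed in 16 of the 56 genes, in both directions. Genes of the SRP (SRP14 and SRP54), of signal peptidase (SPCS1 and SPCS2), the chaperone gene CANX and the stress sensor gene ERN1 were higher in LLC. Genes of the channel and its neighbors (SEC61A1, SSR2 and SSR4), of disulfide isomerases (PDIA4, PDIA5 and P4HB), of collagen prolyl hydroxylation (P4HA1 and P4HA2), the stress factor gene ATF4 and the coat gene SEC13 were lower in LLC. A gene counted as called when the adjusted p of limma, over all 24415 clusters, was under 0.05. By this rule 6 of 56 genes (10.7%) were higher in LLC, where 11.1% of all genes were, and 10 of 56 (17.9%) were lower, where 11.7% of all genes were. The share that was higher is thus near that of all genes. Over the 24415 clusters the shares were 9.64% and 10.2%. The median log2 difference of the 56 genes was -0.04, beside 0.01 for all genes, with 25 differences above and 31 below 0. Without LLC replicate 4, 7 genes were higher and 13 lower.

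The study's filter for differentially expressed genes (DEG) also asks for a fold difference above 2. ERN1, SSR4 and PDIA5 passed it, 1 higher and 2 lower in LLC, where 2.85% of all genes passed as higher and 3.69% as lower. In 7 of the 56 genes all LLC arrays lay above all SLC arrays and in 12 all lay below, where 12.6% and 12.9% of all genes did so. Of the called genes, ATF4 was the only one whose cell types overlapped.

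**Figure D1:**
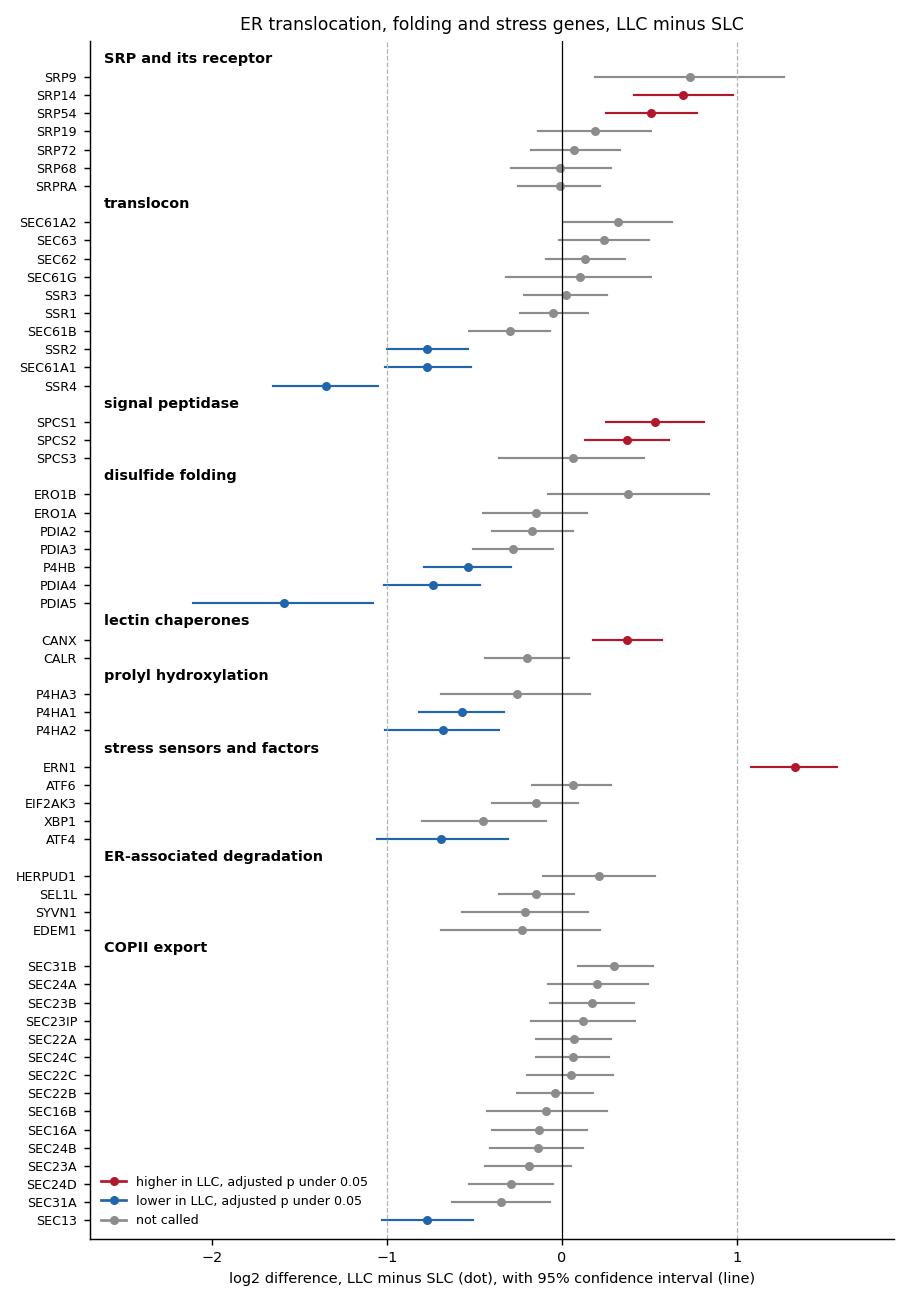
Log2 difference of each of the 56 genes between LLC and SLC (dot, x axis) with its 95% confidence interval (line), grouped by role from SRP to COPII export; dashed lines mark a fold difference of 2 either way. The 6 genes called as higher in LLC lie in the SRP, signal peptidase, lectin chaperone and stress sensor groups, and the 10 called as lower in LLC in the translocon, disulfide folding, prolyl hydroxylation, stress and COPII groups.

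Of the 7 genes of the SRP and its receptor, 2 (28.6%) were higher in LLC, where 11.1% of all genes were. In role groups this small a single gene moves the share widely, and no set test was run. SRP14 encodes a protein of the SRP domain that slows translation. Its log2 signal was 7.59, 7.17, 7.54 and 7.23 in LLC replicates 1 to 4, and 6.69, 6.86, 6.56 and 6.64 in SLC replicates 1 to 4. The cell types did not overlap, and the log2 difference was 0.69 (SE 0.13, adjusted p = 0.0043), or 1.62-fold. SRP54 encodes the subunit that binds the signal sequence, and its signal was 6.43, 6.28, 6.09 and 5.94 in LLC and 5.62, 5.73, 5.67 and 5.68 in SLC. All LLC arrays were above all SLC arrays, with LLC replicate 4 the nearest to SLC, and the log2 difference was 0.51 (SE 0.12, adjusted p = 0.0138).

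SRP9 encodes the partner of SRP14 in the SRP. It had signals of 6.00, 5.23, 5.27 and 4.60 in LLC and 4.42, 4.50, 4.62 and 4.64 in SLC, so that 3 LLC arrays lay above SLC and LLC replicate 4 within it. The log2 difference of 0.73 (SE 0.24) had an adjusted p of 0.0599, and without LLC replicate 4 it was 0.96 with an adjusted p of 0.00603. With other single arrays left out it fell as low as 0.49, and over all settings its adjusted p rose as high as 0.166. The other SRP proteins and the receptor did not pass the test. SRP19 differed by 0.19, SRP72 by 0.07 and SRP68 by -0.01, while SRPRA, the alpha subunit of the receptor, differed by -0.01 (95% confidence interval -0.25 to 0.22).

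At the channel, 3 of 10 genes (30%) were lower in LLC, where 11.7% of all genes were. SSR4 (gene 504438) encodes the delta subunit of the translocon-associated protein complex, which sits at the SEC61 channel and helps some proteins to enter. Its signal was 6.59, 6.91, 6.95 and 7.06 in LLC, against 8.19, 8.16, 8.50 and 8.07 in SLC. The highest LLC array lay about a log2 unit under the lowest SLC array, and SSR4 was 2.55-fold lower in LLC (log2 difference -1.35, SE 0.14, adjusted p = 0.000248). SSR2, of the beta subunit, had 7.74, 7.72, 7.90 and 7.92 in LLC and 8.48, 8.64, 8.73 and 8.50 in SLC. This is again without overlap, at a log2 difference of -0.77 (SE 0.10, adjusted p = 0.000994).

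The other subunits of the same complex did not pass. SSR1, of the alpha subunit, averaged 8.13 ± 0.04 in LLC and 8.18 ± 0.06 in SLC (SD, n = 4 each), with a 95% confidence interval of the difference from -0.24 to 0.15. SSR3, of the gamma subunit, averaged 8.09 ± 0.17 in LLC and 8.07 ± 0.07 in SLC, with an interval from -0.22 to 0.26. A difference between the subunits was not tested.

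SEC61A1 encodes the pore of the channel. Its signal was 7.10, 7.01, 7.15 and 7.25 in LLC and 7.93, 7.72, 8.09 and 7.83 in SLC, a log2 difference of -0.77 (SE 0.11, adjusted p = 0.00129) with no overlap. Of the small channel subunits, SEC61B differed by -0.30 (adjusted p = 0.0678) with all LLC arrays below all SLC arrays, and SEC61G by 0.10 (adjusted p = 0.799). SEC61A2, which encodes a second form of the pore, differed by 0.32 (adjusted p = 0.15). SEC62 and SEC63, whose proteins help in entry after translation, differed by 0.13 and 0.24 and did not pass.

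Of the 3 signal peptidase genes in the rule (SPCS1, SPCS2 and SPCS3), 2 were higher in LLC, where 11.1% of all genes were. SPCS1 had signals of 6.06, 6.09, 5.83 and 5.63 in LLC and 5.37, 5.49, 5.39 and 5.24 in SLC. The cell types did not overlap, and the log2 difference was 0.53 (SE 0.12, adjusted p = 0.0142). SPCS2 had 7.31, 7.09, 7.26 and 7.02 in LLC and 6.70, 6.90, 6.89 and 6.72 in SLC, a log2 difference of 0.37 (SE 0.11, adjusted p = 0.0361). The arrays of SPCS2 were separated too, but its call was lost without any 1 of 7 arrays (LLC replicates 1 to 3 and each SLC replicate), with adjusted p of 0.053 to 0.101. SPCS3 spread from 6.02 to 6.85 in LLC and from 6.29 to 6.53 in SLC, and differed by 0.06 (adjusted p = 0.891). The signal peptidase genes SEC11A and SEC11C lie outside the rule and were looked up after the values had been seen. SEC11A differed by -0.02 (adjusted p = 0.944). SEC11C differed by 0.40 (adjusted p = 0.11) with all LLC arrays above all SLC arrays, and neither passed.

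**Figure D2:**
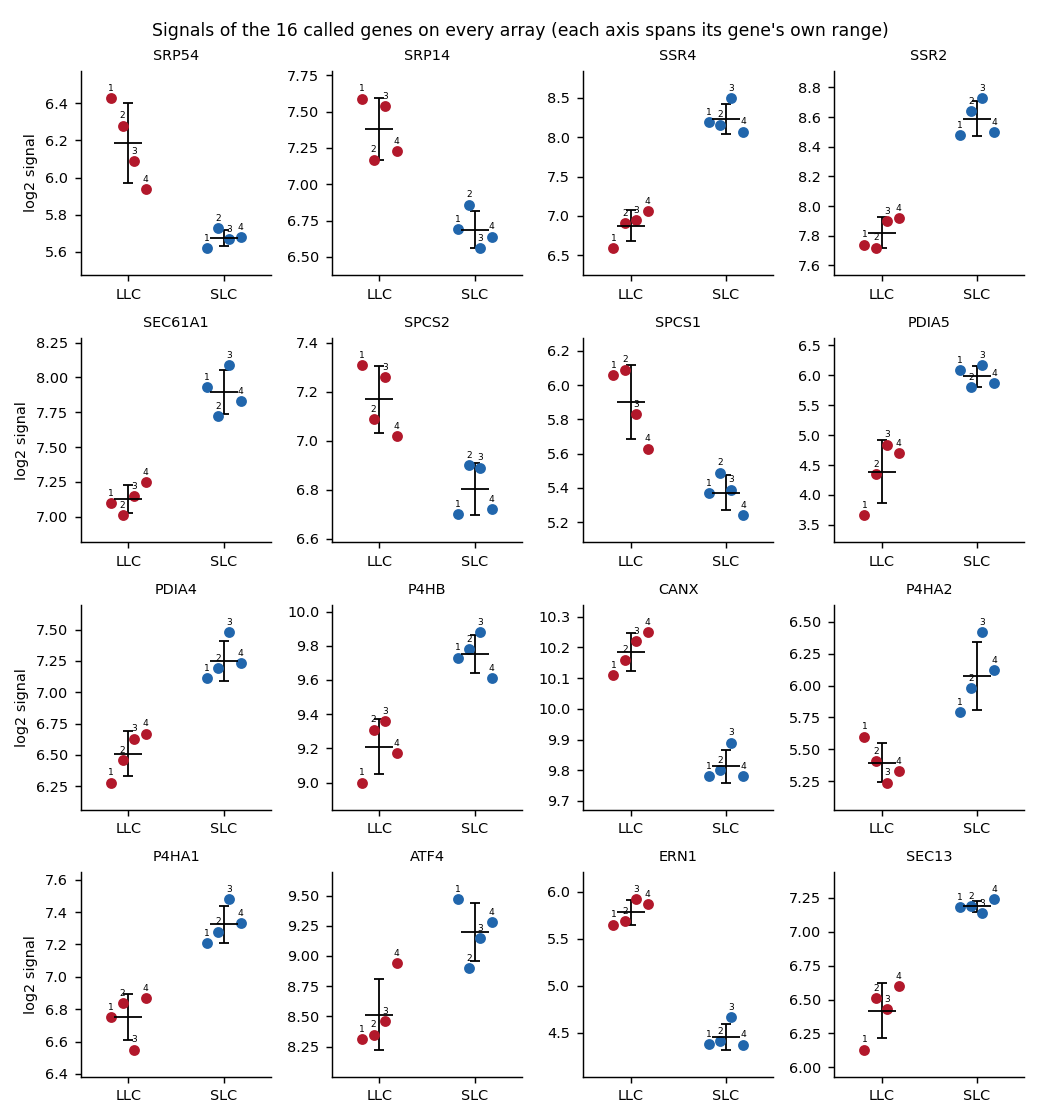
Log2 signal (y axis, a range of its own for each gene) of the 16 called genes on each array of LLC and SLC; dots are arrays with their replicate number, the bar is the mean and the whiskers the SD (n = 4). In 15 of the genes the LLC and SLC arrays do not overlap, and in ATF4 LLC replicate 4 (8.94) lies above SLC replicate 2 (8.90).

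Among 7 genes of disulfide folding, 3 (42.9%) were lower in LLC, where 11.7% of all genes were. PDIA5 (gene 511603), a protein disulfide isomerase gene, had the log2 difference farthest from 0 among the 56 genes. Its signal was 3.66, 4.35, 4.84 and 4.70 in LLC, against 6.08, 5.80, 6.17 and 5.87 in SLC. PDIA5 was 3.02-fold lower in LLC (log2 difference -1.59, SE 0.23, adjusted p = 0.00135), and LLC replicate 1 was the lowest array. PDIA4, of an isomerase that works with ER chaperones, had 6.28, 6.46, 6.63 and 6.67 in LLC and 7.11, 7.19, 7.48 and 7.23 in SLC. It differed by -0.74 (SE 0.12, adjusted p = 0.00279) without overlap.

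P4HB encodes protein disulfide isomerase itself, which is also the beta subunit of collagen prolyl 4-hydroxylase. Its signal was 9.00, 9.31, 9.36 and 9.17 in LLC and 9.73, 9.78, 9.88 and 9.61 in SLC, a log2 difference of -0.54 (SE 0.11, adjusted p = 0.00811). PDIA3, the isomerase that serves glycoproteins bound by calnexin and calreticulin, differed by -0.28 (adjusted p = 0.0829). All LLC arrays of PDIA3 lay below all SLC arrays. The adjusted p was 0.0351 without LLC replicate 2, but this was the LLC array nearest to SLC, so the smaller p adds no support. Over all settings the difference of PDIA3 ran from -0.35 to -0.15, with an adjusted p as high as 0.396. PDIA2 differed by -0.17 and did not pass. Its means of 2.93 in LLC and 3.10 in SLC were not far above the background limits given below (2.38 and 2.29). The oxidase genes ERO1A (-0.15) and ERO1B (0.38), whose proteins recharge the isomerases, did not pass either, and ERO1B ranged from 3.87 to 4.76 in LLC and from 3.64 to 4.19 in SLC.

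The lectin chaperones hold glycoproteins while they fold. CANX, which encodes the membrane-bound calnexin, had signals of 10.11, 10.16, 10.22 and 10.25 in LLC and 9.78, 9.80, 9.89 and 9.78 in SLC. The arrays of each type lay close together, and the log2 difference of 0.37 (SE 0.09, adjusted p = 0.0149) was 1.29-fold. CALR, which encodes the soluble calreticulin, had 9.39, 9.66, 9.76 and 9.62 in LLC and 9.79, 9.72, 9.94 and 9.78 in SLC, and its difference of -0.20 did not pass (adjusted p = 0.258).

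The alpha subunits of collagen prolyl 4-hydroxylase, which form hydroxyproline with P4HB as their partner, were all below SLC on average. P4HA1 had 6.75, 6.84, 6.55 and 6.87 in LLC and 7.21, 7.28, 7.48 and 7.33 in SLC, a log2 difference of -0.57 (SE 0.11, adjusted p = 0.00536). P4HA2 had 5.60, 5.41, 5.24 and 5.33 in LLC and 5.79, 5.98, 6.42 and 6.12 in SLC, a log2 difference of -0.68 (SE 0.14, adjusted p = 0.00896). Both were separated between the cell types. P4HA3 differed by -0.26 with an adjusted p of 0.413.

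Collagen genes and most of their other modifying enzymes were lower in LLC. All 11 genes of collagen types I, III, IV, V and VI were lower in LLC, with a median log2 difference of -1.89. COL6A2 averaged 5.53 ± 0.38 in LLC and 7.98 ± 0.24 in SLC, COL6A1 differed by -2.37 and COL4A1 by -1.31. Of 13 further genes listed under collagen modification, 8 (61.5%) were lower and 2 (15.4%) higher in LLC (median -0.67). Among all genes 11.7% were lower and 11.1% higher. LOX and LOXL1, of enzymes that cross-link collagen, differed by -2.50 and -1.85, and PLOD3, of a lysyl hydroxylase, by -0.97. Higher in LLC were PLOD1 (0.60), another lysyl hydroxylase gene, and P4HTM (0.93). P4HTM encodes a transmembrane prolyl hydroxylase that is not established as a collagen enzyme, though it stood in the list. The remaining genes, PLOD2 (0.06), P3H2 (-0.08) and SERPINH1 (-0.33), did not pass.

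Many markers of fibroblasts and other stromal cells were also lower in LLC. Of 12 fibroblast markers 10 were lower in LLC, where 11.7% of all genes were. FBLN1 (3.73-fold) and POSTN (2.78-fold) were higher, and 3 of the 12 are collagen genes of the list above. The summed linear signal of the fibroblast list was 3774 to 6126 in LLC and 8340 to 10483 in SLC. For 10 pericyte and smooth muscle markers it was 227 to 684 in LLC and 769 to 1435 in SLC, with 5 lower and the other 5 not called. Lower in LLC were also 9 of 10 macrophage markers, at sums of 184 to 322 in LLC and 547 to 757 in SLC, while CYBB of that list was higher. Of 10 vascular endothelial markers 8 were lower, at 222 to 667 in LLC and 876 to 1408 in SLC. In the RNA of a whole sorted sample, fewer cells of a type and less RNA per cell cannot be told apart. Nor can RNA of these genes made by the luteal cells themselves be told from that of other cells. The part of other cells in the differences of the 56 genes was not tested. Of 13 plasma cell and lymphocyte markers 7 (among them JCHAIN and TNFRSF17) were below background in both cell types, at sums of 52 to 58 in LLC and 53 to 63 in SLC, and NKG7 alone was lower in LLC. MZB1, a plasma cell marker, averaged 2.55 in LLC and 2.25 in SLC and did not pass. Background here is the 95th percentile of 711 olfactory receptor genes, 2.38 in LLC and 2.29 in SLC.

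**Figure D3:**
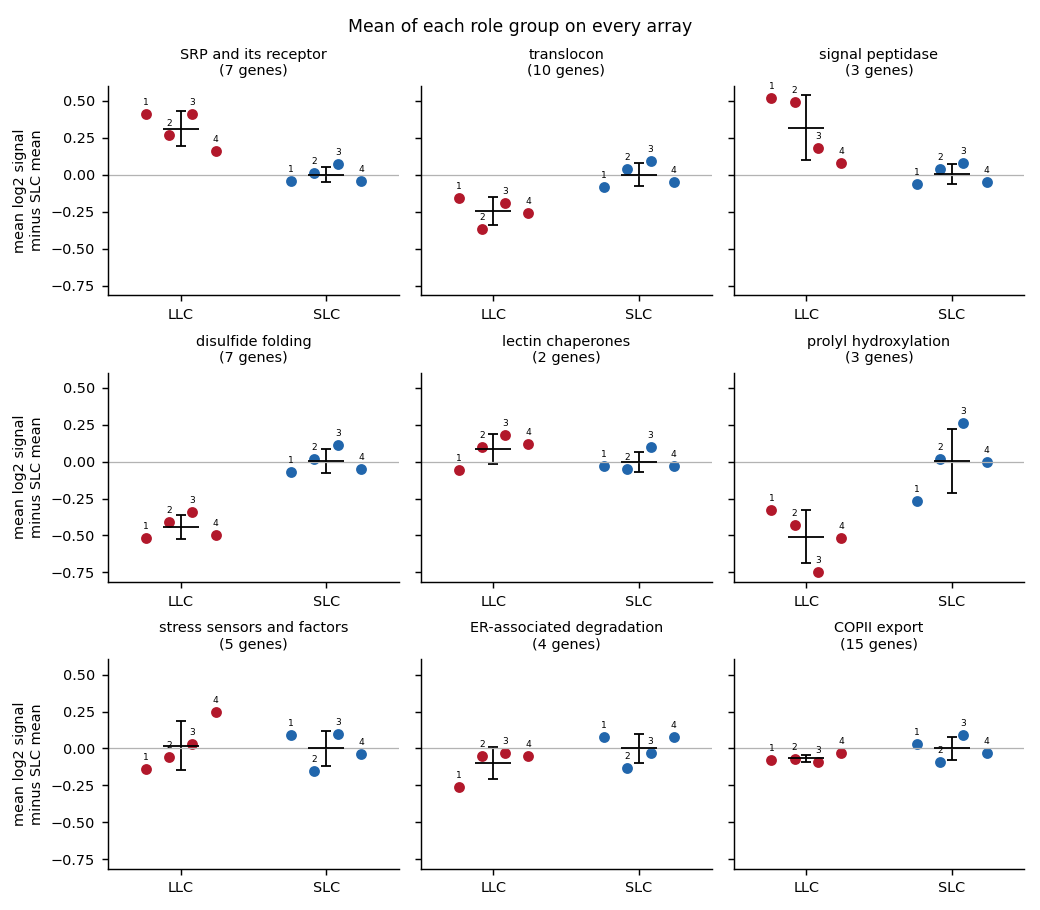
Mean log2 signal of each role group on each array, relative to the mean of the SLC arrays (y axis), for LLC and SLC; dots are arrays with their replicate number, the bar is the mean and the whiskers the SD (n = 4). The SRP group lies at 0.16 to 0.41 in LLC, the translocon at -0.37 to -0.16 and disulfide folding at -0.52 to -0.34, while the lectin chaperones, the stress sensors and factors, ER-associated degradation and COPII export overlap with SLC; the median log2 difference of the translocon genes is -0.01, with 5 above and 5 below 0.

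The sensors and factors of the unfolded protein response were split. ERN1 (gene 524719) encodes IRE1, the sensor that splices XBP1 mRNA. Its signal was 5.65, 5.69, 5.92 and 5.87 in LLC, against 4.38, 4.41, 4.66 and 4.37 in SLC. ERN1 was 2.51-fold higher in LLC (log2 difference 1.33, SE 0.11, adjusted p = 0.0001). Its lowest LLC array lay well above its highest SLC array, and ERN1 had the largest absolute moderated t of the 56 genes. The other sensors did not pass. EIF2AK3, which encodes PERK, differed by -0.15 (95% confidence interval -0.40 to 0.09) and ATF6 by 0.06 (interval -0.17 to 0.28).

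ATF4 encodes a transcription factor that is translated when PERK and related kinases are active. Its signal was 8.31, 8.35, 8.46 and 8.94 in LLC and 9.47, 8.90, 9.15 and 9.28 in SLC, so that LLC replicate 4 alone reached into SLC. The log2 difference was -0.69 (SE 0.17, adjusted p = 0.0175). The adjusted p was 0.0521 without SLC replicate 1 and 0.0518 without SLC replicate 4. XBP1, of the factor that ERN1 activates, had 8.19, 8.23, 8.32 and 8.89 in LLC and 8.98, 8.75, 8.92 and 8.76 in SLC. Here too LLC replicate 4 lay within SLC and the other LLC arrays below it. The log2 difference of -0.45 (SE 0.16) did not pass (adjusted p = 0.0778), and without LLC replicate 4 it was -0.61 (adjusted p = 0.00366). With another single array left out it was as small as -0.37, and over all settings its adjusted p rose as high as 0.179. The array signal of XBP1 does not tell its spliced form from its unspliced form.

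Genes that respond to ER stress, or that encode other membrane-bound factors or parts of the stress pathway, were taken as a list of 25. Of these 8 (32%) were lower in LLC and 2 (8%) higher (median -0.21), where 11.7% and 11.1% of all genes were. DDIT4, an inhibitor of mTOR signaling that responds to several stresses, averaged 6.14 ± 0.32 in LLC and 4.33 ± 0.17 in SLC and was 3.51-fold higher in LLC. The other higher gene was MBTPS2 (0.41). CREB3 and CREB3L2, factor genes of the ATF6 type, differed by -0.48 and -0.67. NUPR1 (-1.20) and PHGDH (-1.05), named after the values had been seen, were lower past the DEG filter. DDIT3, which encodes CHOP and was looked up after the values had been seen, averaged 5.20 ± 0.23 in LLC and 5.34 ± 0.30 in SLC (adjusted p = 0.637).

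None of the 4 genes of ER-associated degradation passed limma's test, with the unadjusted p of all 4 above 0.05. SEL1L, of the adaptor of the ubiquitin ligase that SYVN1 encodes, had 6.42, 6.26, 6.43 and 6.57 in LLC and 6.60, 6.55, 6.60 and 6.52 in SLC, and differed by -0.15 (adjusted p = 0.361). SYVN1 differed by -0.21 (adjusted p = 0.448). Without its highest array, LLC replicate 4, this was -0.37 (adjusted p = 0.0477). With another single array left out it was as small as -0.11, and over all settings its adjusted p rose as high as 0.736. HERPUD1, an ER stress gene of the same machinery, differed by 0.21, and EDEM1, which picks out misfolded glycoproteins, by -0.23 with LLC arrays from 5.53 to 6.54 and SLC arrays from 6.18 to 6.35. Of 23 further genes of this pathway 3 were higher and 3 lower in LLC (13% each), where 11.1% and 11.7% of all genes were. Those called include AUP1 (-0.84), NPLOC4 (0.52) and ERLIN1 (0.47).

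COPII export held 15 genes, of which SEC13 alone was called. SEC13 encodes a protein of the outer coat that is also part of the nuclear pore. Its signal was 6.13, 6.51, 6.43 and 6.60 in LLC and 7.18, 7.19, 7.14 and 7.24 in SLC. The SLC arrays lay close together, all above LLC, and the log2 difference was -0.77 (SE 0.12, adjusted p = 0.00161). SEC31A, of the partner of SEC13 in the outer coat, differed by -0.35 (adjusted p = 0.0826). With LLC replicate 4 left out the difference was -0.45 (adjusted p = 0.0176). With another single array left out it was as small as -0.29, and over all settings its adjusted p rose as high as 0.198. SEC31B differed by 0.30 (adjusted p = 0.051) with all LLC arrays (3.01 to 3.09) above all SLC arrays (2.59 to 2.86). These signals are not far above background, and the call of SEC31B was made in 5 of 17 other settings.

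The inner coat genes, whose proteins choose the cargo, lay between -0.29 and 0.20 and did not pass. SEC24D differed by -0.29 (adjusted p = 0.0863), SEC23A by -0.19, SEC24B by -0.14, SEC24C by 0.06, SEC23B by 0.17 and SEC24A by 0.20. The scaffold genes SEC16A (-0.13) and SEC16B (-0.09) did not pass, and SEC16B was below background in both cell types. SEC22B, of a SNARE that fuses these vesicles, differed by -0.04, its relatives SEC22A and SEC22C by 0.07 and 0.05, and SEC23IP, of a protein that binds SEC23, by 0.12. SEC22C averaged 3.06 in LLC and 3.02 in SLC, not far above background. Of 39 further genes of transport between ER and Golgi 8 (20.5%) were higher and 9 (23.1%) lower in LLC. Among all genes 11.1% were higher and 11.7% lower. TRAPPC1 (0.82) of a tethering complex was higher, and KDELR3 (-1.23) of a receptor that returns ER proteins and TMED9 (-0.55) of a cargo receptor family were lower.

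Pairs of related genes can be compared within an array, as the shift of their log2 ratio between LLC and SLC. Over 12 pairs an exact two-sided permutation test of the 8 arrays was used, whose smallest p is 0.0286. This p was reached by 6 pairs, with an adjusted p of 0.0571 over the 12 pairs, so that no pair passed. At this smallest p no pair could pass by its own shift, however large, unless more pairs reached it too. The adjusted test therefore cannot decide on a single pair. The ratio of SEC61A1 to SEC61A2 was 1.52 to 2.00 in LLC and 2.62 to 3.19 in SLC, a shift of -1.08. For CANX to CALR it was 0.46 to 0.72 in LLC and -0.05 to 0.08 in SLC, a shift of 0.57. SEC31A to SEC31B shifted by -0.65, SEC23A to SEC23B by -0.36, SEC24C to SEC24D by 0.35 and XBP1 to ATF4 by 0.24, each without overlap. The pairs whose cell types overlapped were ERO1A to ERO1B (-0.53), SEC24A to SEC24B (0.35), PDIA3 to P4HB (0.26), P4HA1 to P4HA2 (0.11), SEC62 to SEC63 (-0.11) and SEC16A to SEC16B (-0.05). SEC16B was below background in both cell types, so the shift of its pair does not measure a change of SEC16B.

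**Figure D4:**
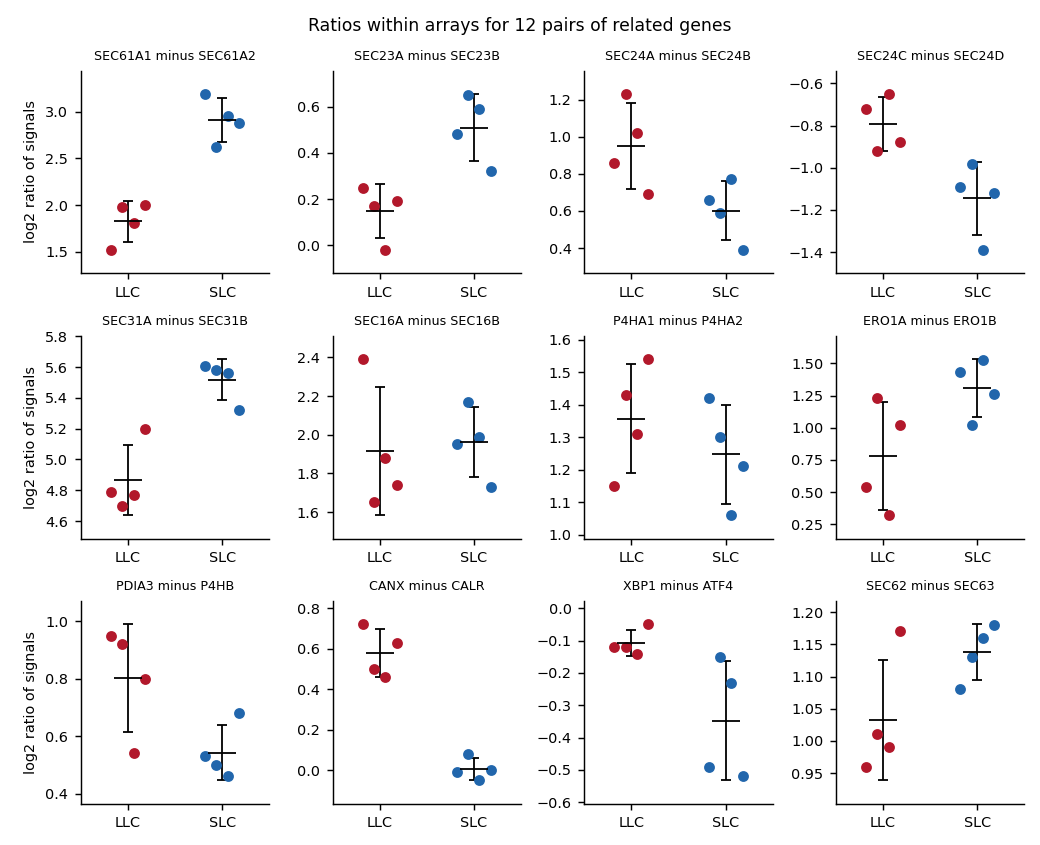
Log2 ratio of the signals of 2 related genes on the same array (y axis, a range of its own for each pair) in LLC and SLC; dots are arrays, the bar is the mean and the whiskers the SD (n = 4). The arrays of LLC and SLC do not overlap in 6 of the 12 pairs, with the widest shift for SEC61A1 to SEC61A2 (-1.08).

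Other genes of the ER were called in both directions. Of 28 further chaperone and oxidoreductase genes 5 (17.9%) were lower and 4 (14.3%) higher in LLC, where 11.7% and 11.1% of all genes were. The 4 higher genes were UGGT2 (log2 difference 1.21, adjusted p = 0.00361, past the DEG filter), UGGT1 (0.52), TMX2 (0.47) and DNAJB9 (0.46). FKBP10, of a prolyl isomerase that folds collagen, averaged 4.88 ± 0.36 in LLC and 7.17 ± 0.26 in SLC, a log2 difference of -2.29 (adjusted p = 9.76e-05). TXNDC5, another disulfide isomerase gene, differed by -1.14 and FKBP9 by -0.96. The abundant chaperone genes HSPA5 and HSP90B1, looked up after the values had been seen, did not pass. HSPA5, which encodes BiP, averaged 9.97 ± 0.29 in LLC and 10.15 ± 0.08 in SLC (adjusted p = 0.451), and HSP90B1 averaged 9.81 ± 0.09 in LLC and 9.80 ± 0.08 in SLC (adjusted p = 0.954).

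For N-glycosylation, 4 of 14 genes (28.6%) were lower and STT3B alone was higher in LLC, where 11.7% and 11.1% of all genes were. STT3B, a catalytic subunit of oligosaccharyltransferase, differed by 0.71, and the subunit genes OSTC and TUSC3 by -0.38 and -0.51. Of 20 further genes of membrane insertion and signal removal 4 (20%) were higher and 2 (10%) lower. EMC7 (0.62) and EMC10 (-0.73), both of the ER membrane protein complex, lay on opposite sides, and HM13 (-0.76), a signal peptide peptidase gene, was lower.

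**Figure D5:**
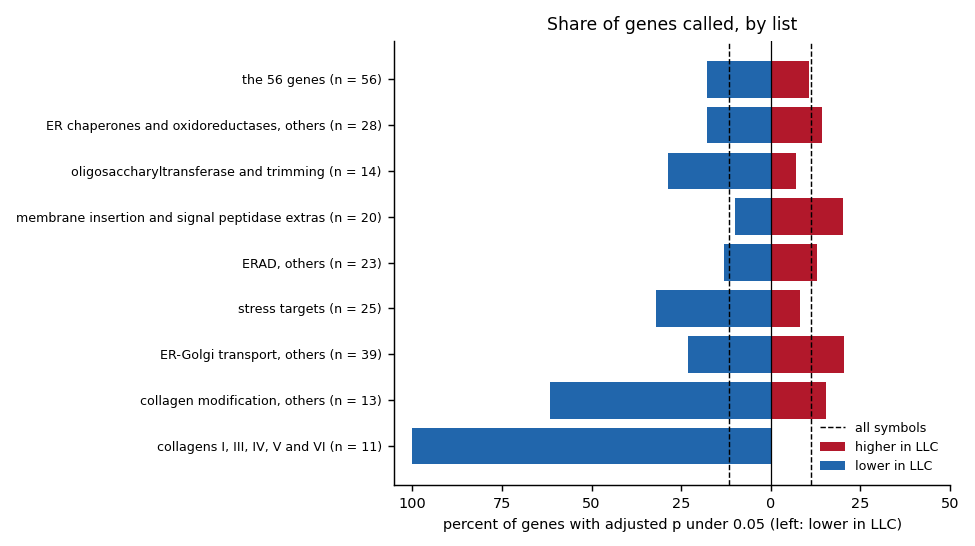
Percent of genes with an adjusted p under 0.05 (x axis) that were higher in LLC (red, right) or lower in LLC (blue, left), for the 56 genes and for lists of other genes of the same pathways; dashed lines give all genes (11.1% higher, 11.7% lower). The 56 genes stand at 10.7% and 17.9%, and the collagen list is lower in LLC for 11 of 11 genes.

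For 40 of the 56 genes the LLC arrays had the larger SD, with a median SD of 0.157 in LLC and 0.116 in SLC. The share over all genes was not computed, and the genes were measured on the same arrays. The count is therefore not shown to be particular to these genes. In 10 of the 16 called genes LLC replicate 4 was the LLC array nearest to the SLC mean, as in SRP54, SSR4, SPCS1 and ATF4, but not in ERN1, PDIA5 or CANX. This was not counted for the called genes outside the 56. The list of 6 markers of lymphatic endothelium, averaged on the log2 scale, stood at -0.01 in LLC replicate 4 and at -2.08 to -1.41 in LLC replicates 1 to 3 when set against SLC, and FLT4 alone of the list was called (lower in LLC). The summed linear signal of the 6 markers was 658 to 1425 in LLC and 865 to 1712 in SLC. These sums lean on PDPN, whose mean was the highest of the list in both cell types (9.27 in LLC, 9.01 in SLC). PDPN alone of the list had a positive difference (0.27, adjusted p = 0.266). The part of lymphatic cells in the values of LLC replicate 4 was not tested.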

How the data were processed

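RNA of 4 LLC and 4 SLC samples was hybridised to 1 array each. The authors processed the CEL files to log2 signals with RMA (version not given in the sources used here) in Transcriptome Analysis Console 4.0, which corrects background, normalizes across arrays and summarises probes. No genome build is given there. These log2 signals of 24415 clusters were used as deposited.

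Symbols came from the platform annotation, with 18550 clusters of only 1 symbol. The gene numbers of 55 of the 56 members were found in the RefSeq table of ARS-UCD2.0 under the same symbol, and ERN1 stands there under another number. PDIA6 shares its cluster with another symbol and was left out, as was a cluster shared by CYP39A1 and ATF6.

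LLC were compared with SLC by lmFit and eBayes of limma 3.58.1 (R 4.3.3), without a replicate block, with Benjamini-Hochberg adjustment over all clusters. Lists were described by counts and medians, with no set test. Members and lists were chosen with earlier results of these data known. Each member is named at least once. Values on every array are given for DEG, for the leading called genes of each role by moderated t (the 1 of largest t where none passed) and for others discussed. Up to 3 genes by t are named from other lists, or more where a count is 5 or fewer. Pairs used SciPy 1.17.1. The fit was tested on simulated data. Alternatives were other normalizations, filters, moderation, weights, blocks, adjustment families and clusters, and leaving out each array. The number of arrays limits the precision, and a gene that did not pass is not shown to be unchanged.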

Additional observations from a re-analysis of the deposited data

Results flagged for a closer look

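In 3 of 112 groups of 4 arrays (each of the 56 genes in each cell type) a single array lay far off the rest. About 1 in 20 groups would do so by chance. SSR3 was at 7.84 in LLC replicate 2 and at 8.15 to 8.19 in the other LLC arrays. ERN1 was at 4.66 in SLC replicate 3 and at 4.37 to 4.41 in the other SLC arrays, all below the LLC arrays. SEC24C was at 6.07 in SLC replicate 1 and at 5.99 to 6.00 in the others.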

How the results depend on the processing

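Of the 16 called genes, 13 kept their call in all 17 other settings. SPCS2 lost it in 8, ATF4 in 3 (among them the fit without moderation, adjusted p = 0.0671) and CANX in 1. Of the 40 others, 6 gained a call in some setting: SRP9 in 3, PDIA3, XBP1, SYVN1, SEC31A and SEC31B. No called difference changed sign. Leaving out 1 array gave 5 to 7 genes higher and 9 to 13 lower, with 1 and 2 past the DEG filter each time. The replicate number is not said to pair samples, and same-numbered arrays deviated together with r of -0.13 to 0.17. With it as a replicate block 4 genes were higher and 10 lower, with CANX (adjusted p = 0.0506) and SPCS2 (0.0758) lost. The median of the 56 genes was -0.03 with array medians subtracted, -0.02 with quantile normalization and -0.07 to -0.02 without 1 array. With quantile normalization the medians were -0.16 for disulfide folding (-0.28 as reported) and 0.20 for the lectin chaperones (0.09). Without dim clusters COPII export had 0.00 (-0.04). Without 1 array, the median was 0.06 to 0.27 for the SRP group and -0.06 to 0.00 for COPII export. The cause of these shifts was not tested.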
